A study of Mus musculus with 18 samples.

Results

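The 50 genes described here encode proteins that carry cells through mitosis, and the proliferation state of reprogramming mouse embryonic fibroblasts (MEFs) was read from them. They were chosen by name, for what their proteins do, but with earlier results of these data known. The knockdown table listed 49 of the 50 among 9435 genes, with *Cdc25c* not listed, and the overexpression table listed all 50 among 9472 genes. The splicing table held 3085 events in these genes among 661941 annotated events.

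RNA-seq was performed on 18 libraries, 2 in each of 9 groups. All cells were primary fibroblasts of male embryos from the *Collagen-OKSM*, *M2rtta+* line, in which doxycycline, through the rtTA transactivator, induces the reprogramming factors OCT4, KLF4, SOX2 and MYC. Non-infected MEFs (NI) at day 0 served as the starting point of both experiments. At day 12, the knockdown experiment held cells infected at day 0 with lentiviruses for a scrambled shRNA (shSCR), for 1 of 2 shRNAs against *Cpsf3* (shCPSF3#1, shCPSF3#2) or for 1 of 2 against *Hnrnpul1* (shUL1#1, shUL1#2). The overexpression experiment held cells infected with a retroviral empty vector (Empty) or with a vector for T7-tagged *Tia1* (T7-TIA1). All infected cells, controls included, received doxycycline and LIF from day 0. CPSF3 is the endonuclease of the cleavage and polyadenylation complex, and hnRNP UL1 and TIA1 are RNA-binding proteins. Infected cells were sorted for GFP at day 2, grown on irradiated MEF feeders and harvested by trypsin together with that layer, so that a day 12 library can contain RNA of feeders and of cells that had not reprogrammed. The time given for shUL1#2, and for the NI libraries beside Empty and T7-TIA1, disagreed with the sample title, and the day in the title was used. No label ties the replicates to separate embryos or cultures, so that p-values measure the spread between these libraries, which may be technical.

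Mitosis begins when CDK1, bound to cyclin B and activated by CDC25 phosphatases, phosphorylates its many substrates. Kinetochores then capture microtubules, the spindle assembly checkpoint holds back the anaphase-promoting complex until each chromosome is attached, and separase and the central spindle finish division. Most of the genes for these proteins are transcribed late in the cell cycle and silenced in resting cells by the DREAM complex, which binds a promoter element with the letters TTTGAA, often beside CCAAT boxes bound by NF-Y.

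These letters were common in the promoters of the mitosis genes. RefSeq promoter windows on GRCm38.p6, from 250 bases before to 50 after each start site, were matched for 43 of the 50 genes. A gene with several windows was counted if any of them held the motif. TTTGAA on either strand occurred in 33 of the 43 genes (76.7%), against 20.2% of 27025 genes with windows of the same length. CCAAT on either strand was also found in 33 (76.7%, against 41.1% of all), at least 2 times in 21 (48.8%, against 13.3%). Both motifs, which can overlap only by an end base, stood in 1 promoter for 29 of the genes (67.4%, against 7.97%). A match is a description of the letters and not of binding. The bases before the start sites of *Cdk1* (chr10:69352913-69353162, minus strand), *Ccnb2* (chr9:70421555-70421804, minus strand) and *Top2a* (chr11:99024190-99024439, minus strand) are shown as examples that hold both motifs, with TTTGAA and CCAAT, or their reverse complements, in capitals.

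Cdk1: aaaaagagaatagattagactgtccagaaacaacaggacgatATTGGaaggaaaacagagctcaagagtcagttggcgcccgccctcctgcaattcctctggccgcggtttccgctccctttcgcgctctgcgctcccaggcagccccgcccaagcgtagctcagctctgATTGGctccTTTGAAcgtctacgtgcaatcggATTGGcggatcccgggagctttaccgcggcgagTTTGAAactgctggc
Ccnb2: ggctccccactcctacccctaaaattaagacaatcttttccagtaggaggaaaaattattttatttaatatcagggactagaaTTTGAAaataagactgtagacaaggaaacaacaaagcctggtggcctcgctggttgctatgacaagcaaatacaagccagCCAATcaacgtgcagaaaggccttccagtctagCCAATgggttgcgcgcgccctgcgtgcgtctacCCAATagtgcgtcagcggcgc
Top2a: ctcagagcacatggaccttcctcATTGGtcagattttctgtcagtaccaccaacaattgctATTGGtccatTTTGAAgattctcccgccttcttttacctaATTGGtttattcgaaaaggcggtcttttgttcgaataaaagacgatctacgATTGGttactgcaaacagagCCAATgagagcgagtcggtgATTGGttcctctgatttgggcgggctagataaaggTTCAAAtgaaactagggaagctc

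The smallest steps between values put the depth of the libraries at an estimated 98882289 to 109047542 reads on the listed genes. Levels are scaled CPM, the authors' read counts per library size, and are compared between libraries and not between genes. *Cpsf3* stood at 86.7 and 118 scaled CPM in shSCR, at 38.6 and 49.99 in shCPSF3#1 and at 42.4 and 77.1 in shCPSF3#2 (log2 fold change −0.997, adjusted p = 0.0207). *Hnrnpul1* stood at 156 and 185 in shSCR and between 38.7 and 85.9 in the 4 shUL1 libraries (−1.52, adjusted p = 0.0101). *Tia1* stood at 85.6 and 77.04 in Empty and at 613 and 469 in T7-TIA1. Fibroblast markers were present throughout, whereas only *Klf4* of 17 pluripotency genes was listed in either table, the authors having filtered out lowly expressed genes. The lowest value in any library of the overexpression table was 5.07, so a gene low at day 0 can be missing there however high at day 12. Absence from that table thus does not show a low level at day 12. Of 6 macrophage markers, *Cd68*, *Csf1r* and *Lyz2* were listed, in the knockdown table only. Their sum was 9.6 to 10.6 scaled CPM in NI, 171 to 300.4 in shSCR, 1371 to 1814 in shCPSF3#1, 429 to 1282 in shCPSF3#2, 259 to 533 in shUL1#1 and 581 to 1000.2 in shUL1#2. Of 4 endothelial markers only *Tek* was listed, at 1.2 and 1.5 in NI, 24.96 and 29.7 in shSCR, 18.3 to 63.9 with CPSF3 and 41.9 to 143 with UL1 knockdown. The pan-leukocyte gene *Ptprc* and the macrophage gene *Adgre1* were not listed.

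The first question was how the mitosis genes stood at day 12 in control cells compared with the fibroblasts of day 0. In shSCR, 1 of 49 rose and 1 fell at an adjusted p under 0.05 (*limma* on log2(scaled CPM + 1), Benjamini-Hochberg over all genes), whereas 22.5% of all genes rose and 22.0% fell. The members had a median log2 fold change of −0.48 (all genes 0.00), and 36 of the 49 were below 0. This median was 0.03 without shSCR replicate 1 and −0.89 without shSCR replicate 2. Both calls were lost without NI replicate 1, 1 remained without NI replicate 2 or either shSCR library, and there were 4 when any 1 library of CPSF3 knockdown was left out. In Empty, 11 of 50 rose and 7 fell (22.8% and 23.6% of all genes), with a median of 0.05 (all genes 0.01). The uncertainty was larger in the knockdown table, where the median standard error (SE) of the members was 0.62, against 0.20 for all genes. In the overexpression table it was 0.18, against 0.14. With the replicate number as a block in the fit, 2 members rose and 22 fell in shSCR (29.9% and 29.6% of all genes). Over all genes, same-numbered NI and shSCR libraries did not deviate together (correlation −0.042). Scaling each library to the same sum moved the median of all genes from 0.00 to 0.13 in shSCR and from 0.01 to 0.19 in Empty, and then gave 18 rises and 3 falls in Empty and 1 rise and 0 falls in shSCR. The median in Empty was 0.285 without NI replicate 1 and −0.19 without NI replicate 2. The counts in Empty also moved with single libraries, to 22 rises and 7 falls without NI replicate 1, 11 and 20 without NI replicate 2, 2 and 1 without Empty replicate 1, 6 and 0 without Empty replicate 2, and 6 and 2 without either T7-TIA1 library, which shares the estimate of spread. By the simpler count of groups that did not overlap, 23 members lay lower and 2 higher in shSCR than in NI (38.4% and 38.7% of all genes), and 15 lay lower and 18 higher in Empty (36.8% and 37.6%).

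The summed level of the 49 shared members was 6377 and 7749 scaled CPM in the NI libraries of the knockdown table, and 3771 and 6831 in shSCR. In the overexpression table it was 6702 and 4732 in NI, and 6330 and 5455 in Empty. The groups did not differ beyond the spread of their libraries in the overexpression table, and in the knockdown table only the second shSCR library overlapped NI. Fewer dividing cells and less of these RNAs per cell cannot be told apart in bulk RNA.

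Genes that control entry into mitosis differed in direction. *Cdk1*, the kinase that triggers mitosis, stood at 239 and 269 scaled CPM in NI, 74.7 and 130.3 in shSCR, 246 and 144 in the second NI group, and 135 and 120.2 in Empty. Its day 12 libraries were the lower ones in both tables and did not overlap day 0, but neither difference passed the test (log2 fold change −1.35 ± 0.48, SE, n = 2 per group, adjusted p = 0.052, and −0.56 ± 0.25, adjusted p = 0.117). *Ccnb1*, which encodes the cyclin B1 partner of CDK1, did the opposite in the overexpression table. It stood at 187 and 122 in NI and at 285 and 239 in Empty, a rise of 0.785 ± 0.22 (adjusted p = 0.0328), whereas in the knockdown table NI (178 and 220.4) and shSCR (135 and 267) overlapped (−0.06 ± 0.77, adjusted p = 0.954). *Cdc25b*, a phosphatase that activates CDK1, fell in Empty (−0.56 ± 0.16, adjusted p = 0.0364). The other members of this role, *Ccna2*, *Ccnb2*, *Cdc25c* and *Cdca3*, passed the test in neither table.

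None of the 6 genes for Polo and Aurora kinases and the chromosomal passenger complex passed the test. *Plk1*, the Polo kinase of spindle assembly, stood at 83.3 and 111 in NI, 36.1 and 74.0 in shSCR, 96.9 and 67.5 in the second NI group, and 74.3 and 69.2 in Empty. *Aurka*, the Aurora kinase of spindle poles, stood at 84.0 and 102 in NI, 45.7 and 86.1 in shSCR, 97.5 and 57.2 in the second NI group, and 89.7 and 84.0 in Empty. Libraries of the overexpression table overlapped between the days for both kinases. The log2 fold changes were −0.88 ± 0.73 and −0.17 ± 0.18 for *Plk1*, with adjusted p of 0.357 and 0.469, and −0.56 ± 0.67 and 0.21 ± 0.24 for *Aurka*, with adjusted p of 0.530 and 0.502. *Aurkb*, *Incenp*, *Birc5* and *Cdca8*, which form the passenger complex, had log2 fold changes between −1.19 and 0.32.

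Of the 8 checkpoint and anaphase genes, 4 rose and 0 fell in Empty (22.8% and 23.6% of all genes), and without Empty replicate 1 or 2 only 2 or 6 rises were left among all members. *Pttg1*, which encodes securin, the inhibitor of separase, stood at 20.9 and 27.4 in NI and at 55.3 and 83.7 in shSCR. In the overexpression table it stood at 23.8 and 18.8 in NI and at 69.6 and 58.2 in Empty. Day 12 lay above day 0 in every library, and *Pttg1* rose in both tables (1.47 ± 0.37, adjusted p = 0.0134, and 1.54 ± 0.16, adjusted p = 0.00179). *Espl1*, the gene of separase itself, stood at 61.5 and 45.3 in NI and at 115 and 108 in Empty, and rose by 1.06 ± 0.16 (adjusted p = 0.00499). *Bub1* and *Bub1b*, kinases of the spindle checkpoint, rose in Empty by 1.05 ± 0.20 (adjusted p = 0.0101) and 0.86 ± 0.12 (adjusted p = 0.00419). In shSCR the values of *Espl1*, *Bub1* and *Bub1b* were 0.44, 0.49 and 0.28 (adjusted p = 0.648, 0.651 and 0.786). *Bub3*, the checkpoint protein that docks BUB1 at kinetochores, was the 1 member that fell in shSCR, from 152 and 158 to 76.3 and 105.3 (−0.78 ± 0.24, adjusted p = 0.0313), a call that was lost with equal sums per library. The remaining *Ttk*, *Cdc20* and *Ube2c* passed the test in neither table.

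Of the 6 centromere and kinetochore genes, 4 fell and 1 rose in Empty (23.6% and 22.8% of all genes), and without Empty replicate 1 or 2 only 1 or 0 falls were left among all members. *Nuf2*, *Cenpe*, *Spc25* and *Ndc80* fell, while *Cenpf* rose and *Cenpa* missed the threshold. *Nuf2*, a subunit of the NDC80 complex that binds microtubules, stood at 85.1 and 62.9 in NI and at 37.7 and 32.5 in Empty (−1.04 ± 0.18, adjusted p = 0.00673). In the knockdown table it stood at 85.9 and 107 in NI and at 21.8 and 43.6 in shSCR (−1.61 ± 0.59, adjusted p = 0.0565). Its day 12 libraries thus lay below every day 0 library in both tables, though the test was passed in 1 of them. *Cenpe*, a kinetochore motor, fell from 153 and 105 to 86.2 and 78.5 in Empty (−0.62 ± 0.19, adjusted p = 0.0428).

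Spindle, cytokinesis and chromosome genes were mixed. *Nusap1*, which bundles spindle microtubules, stood at 62.6 and 47.6 in NI and at 115 and 91.5 in Empty (0.90 ± 0.18, adjusted p = 0.0125), and the kinesin genes *Kif11* and *Kif22* also rose there. *Prc1*, which crosslinks microtubules of the central spindle, stood at 177 and 106 in NI and at 76.5 and 62.7 in Empty, a fall of 0.975 ± 0.25 on the log2 scale (adjusted p = 0.0261). *Cit*, for citron kinase of the midbody, and *Kif20b*, a kinesin of cytokinesis, rose in Empty by 0.62 ± 0.16 (adjusted p = 0.0241) and 0.61 ± 0.18 (adjusted p = 0.0362). *Mki67*, whose product coats mitotic chromosomes and serves as a proliferation marker, stood at 328 and 377 in NI, 111 and 205 in shSCR, 329 and 263 in the second NI group, and 201 and 174 in Empty. It fell in Empty (−0.655 ± 0.15, adjusted p = 0.0162) and missed the threshold in shSCR (−1.22 ± 0.53, adjusted p = 0.0956). *Top2a*, which untangles chromosomes, stood at 592 and 683 in NI, 299.9 and 648 in shSCR, 589 and 419 in the second NI group, and 671 and 573 in Empty, with overlap in both tables. Its log2 fold changes were −0.53 ± 0.71 (adjusted p = 0.574) and 0.32 ± 0.19 (adjusted p = 0.214). The 5 condensin genes *Smc2*, *Smc4*, *Ncapd2*, *Ncapg* and *Ncaph* passed the test in neither table.

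**Figure D1:**
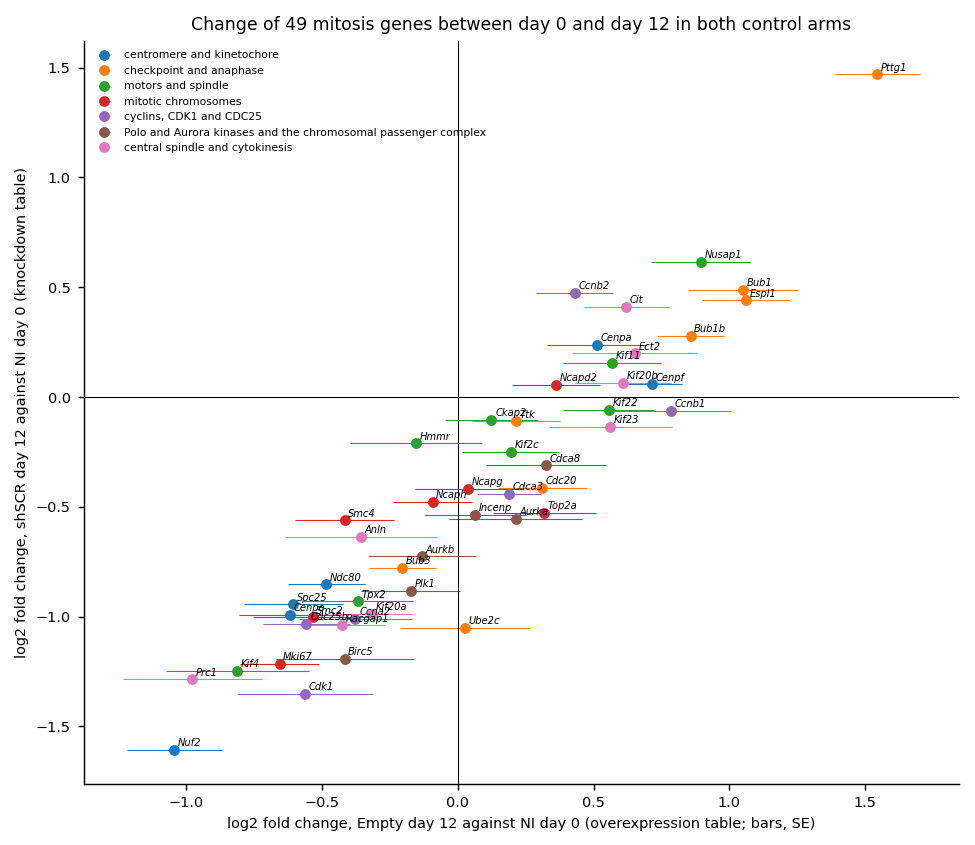
Log2 fold change from NI day 0 to day 12 of the 49 members listed in both tables, Empty on the x axis and shSCR on the y axis, 1 point per gene coloured by role, with horizontal bars for the SE in Empty (the SE in shSCR, 0.18 to 0.80, is not drawn). *Pttg1* was highest and *Nuf2* lowest in both arms.

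The order of the members was alike in the 2 arms, which share no library. Across the 49 genes, Pearson's r of the log2 fold changes was 0.935 and Spearman's rho 0.933. This is a correlation across genes of 1 network, which are not independent replicates, and no p is given. In both arms 22 members lay below 0 and 13 above, while 14 lay below 0 in shSCR and above 0 in Empty and 0 the other way round.

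**Figure D2:**
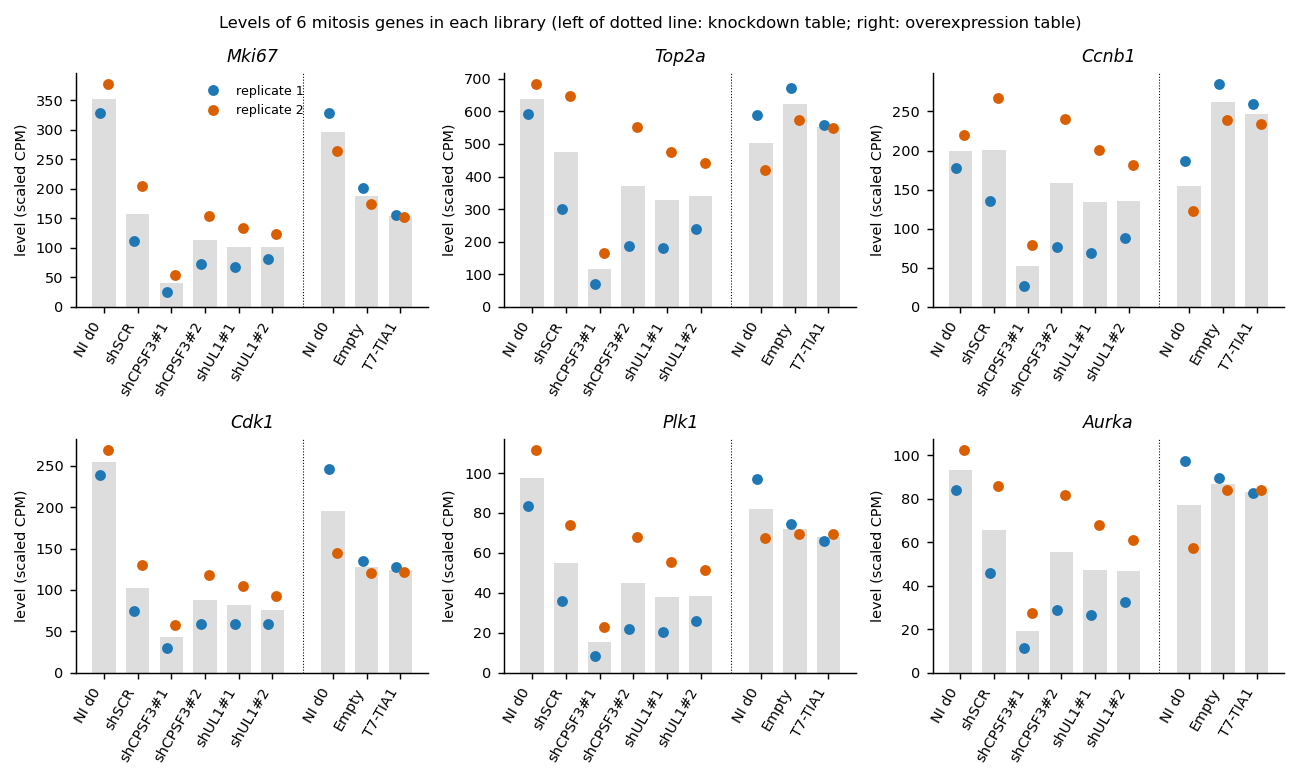
Level in scaled CPM (y axis, starting at 0) of *Mki67*, *Top2a*, *Ccnb1*, *Cdk1*, *Plk1* and *Aurka* in each of the 18 libraries, with points for replicates and grey bars for the group mean. Within the day 12 knockdown groups the second replicate lay above the first for all 6 genes, and shCPSF3#1 had the lowest means.

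Libraries with the same replicate number moved together within the day 12 knockdown groups. The second library was higher than the first for 49 of 49 members in shSCR, shCPSF3#1 and shCPSF3#2 and for 48 in shUL1#1 and shUL1#2, by a median log2 difference of 0.80 to 1.35. Of all genes, 49.2% to 55.7% were higher in the second library of these groups. In NI of the same table the second library was also higher for 49 of 49 members (51.7% of all genes), with a smaller median difference of 0.27. In the overexpression table the second library was the lower one for 49 of 50 members in NI (median −0.44) and for 48 in Empty (−0.22), whereas in T7-TIA1 it was the higher one for 38 of 50 (0.06). The macrophage sum was higher in the first library of each day 12 knockdown group, whose member sum was lower, and its part in this difference was not tested.

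The second question was whether knockdown of CPSF3 or hnRNP UL1 changed these genes relative to shSCR at day 12. Each factor was represented by 4 libraries, 2 for each shRNA. After CPSF3 knockdown, 7 of 49 members fell and 0 rose (*limma*, adjusted p under 0.05), whereas 9.35% of all genes fell and 16.7% rose. With only the groups compared in the fit, which leaves fewer libraries to estimate the spread, no member passed. The median log2 fold change of the members was −1.25 (all genes 0.03), that is 2.37-fold lower, with all 49 below 0 and 28 at an unadjusted p under 0.05 (42.3% of all genes). The 7 became 0 without shSCR replicate 2, 4 without shSCR replicate 1, 27 without shCPSF3#2 replicate 2, 2 without its replicate 1 or without shCPSF3#1 replicate 1, and 4 without either library of NI or shUL1#2. After UL1 knockdown, none passed the threshold in *limma* (3.15% of all genes fell and 7.31% rose) and 3 had an unadjusted p under 0.05 (28.8% of all genes). The median was −0.71 (all genes 0.00), 1.64-fold lower, again with all 49 below 0. It was −1.12 without shSCR replicate 1 and −0.29 without shSCR replicate 2. The sum of 18 fibroblast and feeder markers was 13248 to 16870 scaled CPM in shSCR, 25197 to 42725 in CPSF3 and 24436 to 44044 in UL1 knockdown, and its part in these falls was not tested.

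These counts treat the libraries as unpaired. With the replicate number as a block, 48 of 49 members fell after CPSF3 knockdown (22.6% of all genes) and 30 of 49 after UL1 knockdown (12.8%), and none rose. Members that lay below the shSCR library of the same number in every knockdown library numbered 46 for CPSF3 (31.6% of all genes) and 47 for UL1 (33.9%). Without regard to number, 5 members lay lower in every CPSF3 library than in both shSCR libraries (14.0% of all genes) and 7 in every UL1 library (16.4%), both shares being below that of all genes.

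The shRNAs against *Cpsf3* were unequal. Relative to the shSCR library of the same number, the median log2 difference of the members was −2.09 and −1.79 in shCPSF3#1, −0.86 and −0.40 in shCPSF3#2, −0.94 and −0.585 in shUL1#1, and −0.64 and −0.71 in shUL1#2. All members but 1 lay below shSCR in shCPSF3#1 replicate 1, and 46 of 49 in shCPSF3#2 replicate 2, the library with the highest *Cpsf3* level among the 4. With shCPSF3#1 alone, 30 members fell (14.4% of all genes) with a median of −1.95, and with shCPSF3#2 alone none did in *limma* (median −0.58, 1.12% of all genes falling), with 3 at an unadjusted p under 0.05 (23.1% of all genes). The shCPSF3#1 libraries, with the lowest member sums (956 and 1974 scaled CPM), also had the highest sums of the 3 listed macrophage markers, all of which rose after CPSF3 knockdown. The part of other cells in the result was not tested.

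**Figure D3:**
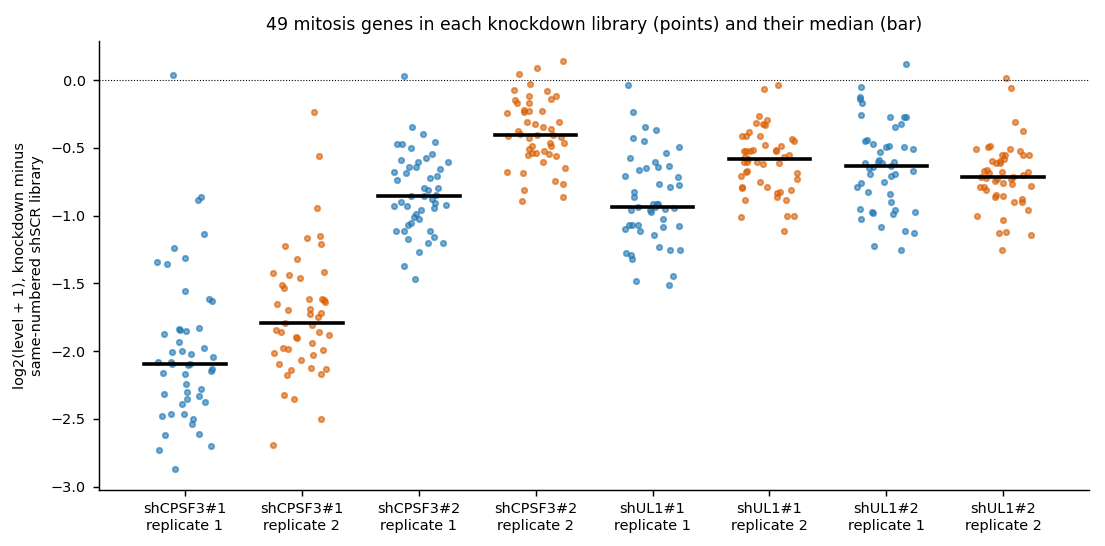
Difference in log2(scaled CPM + 1) between each knockdown library and the shSCR library of the same replicate number (y axis), 1 point per member for 49 members in each of 8 libraries (x axis), with a bar for the median. Medians ranged from −2.09 in shCPSF3#1 replicate 1 to −0.40 in shCPSF3#2 replicate 2, and the 4 UL1 libraries lay between −0.94 and −0.585.

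Falls after CPSF3 knockdown were spread over 5 of the 7 roles. *Ccnb2*, the gene of cyclin B2, stood at 59.95 and 105.3 in shSCR, 8.4 and 20.2 in shCPSF3#1, and 21.01 and 57.4 in shCPSF3#2. All 4 knockdown libraries lay below both shSCR libraries (−1.84 ± 0.56, adjusted p = 0.0450). *Anln*, for the actin-binding anillin of the cleavage furrow, stood at 194 and 287 in shSCR, 33.5 and 64.5 in shCPSF3#1, and 89.1 and 154 in shCPSF3#2, again without overlap (−1.66 ± 0.36, adjusted p = 0.0137). *Cit* stood at 40.6 and 59.8 in shSCR, 7.0 and 13.9 in shCPSF3#1, and 16.2 and 40.3 in shCPSF3#2 (−1.56 ± 0.47, adjusted p = 0.0442). *Pttg1*, at 55.3 and 83.7 in shSCR, stood at 20.99 and 24.6 in shCPSF3#1 and at 26.0 and 47.4 in shCPSF3#2 (−1.24 ± 0.32, adjusted p = 0.0266). Securin RNA, which had risen between day 0 and shSCR, thus lay near its day 0 level of 20.9 and 27.4 in shCPSF3#1. *Ckap2*, a microtubule-associated protein, and the condensin genes *Smc4* and *Ncaph* were the other members that fell (−0.67, −1.13 and −1.23).

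The 6 proliferation genes followed throughout did not pass the unpaired test with either factor. *Mki67* stood at 111 and 205 in shSCR, 25.6 and 54.2 in shCPSF3#1, 72.8 and 154 in shCPSF3#2, 67.5 and 134 in shUL1#1, and 81.1 and 123 in shUL1#2. Only the shCPSF3#1 libraries and the first libraries of the other knockdowns lay below both shSCR libraries. Its log2 fold change was −1.25 ± 0.46 for CPSF3 (adjusted p = 0.0759) and −0.62 ± 0.46 for UL1 (adjusted p = 0.399). *Top2a* stood at 69.5 and 164 in shCPSF3#1, 187 and 552 in shCPSF3#2, 182 and 475 in shUL1#1, and 239.6 and 442 in shUL1#2, against 299.9 and 648 in shSCR (−1.24 ± 0.61, adjusted p = 0.156, and −0.51 ± 0.61, adjusted p = 0.616). *Ccnb1* differed by −1.26 ± 0.67 (adjusted p = 0.186) and −0.63 ± 0.67 (adjusted p = 0.568), and *Cdk1* by −0.74 ± 0.42 (adjusted p = 0.211) and −0.37 ± 0.42 (adjusted p = 0.591). *Plk1* differed by −1.12 ± 0.63 (adjusted p = 0.208) and −0.55 ± 0.63 (adjusted p = 0.601), and *Aurka* by −1.06 ± 0.58 (adjusted p = 0.194) and −0.52 ± 0.58 (adjusted p = 0.590). All 12 values were lowest without shSCR replicate 1 and highest without shSCR replicate 2, running for CPSF3 from −1.80 for *Top2a* to −0.34 for *Cdk1* and for UL1 from −1.12 for *Ccnb1* to 0.04 for *Top2a*. With the replicate number as a block all 6 fell after CPSF3 knockdown, with adjusted p of 0.00173 for *Mki67*, 0.0052 for *Top2a*, 0.00614 for *Ccnb1*, 0.00806 for *Cdk1*, 0.00496 for *Plk1* and 0.00621 for *Aurka*. After UL1 knockdown the block brought *Mki67* past the threshold (adjusted p = 0.0355), and the other 5 had an adjusted p of 0.0903 to 0.147. *Bub1* had the most negative value of the members for CPSF3 but missed the threshold (−1.92, adjusted p = 0.0729), whereas *Bub3* stood at −0.01 for both factors.

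By role, the medians after CPSF3 knockdown ran from −1.09 for the Polo, Aurora and passenger genes to −1.44 for the cytokinesis genes. After UL1 knockdown they ran from −0.55 to −0.81, with the same roles at the ends. The direct comparison of the factors gave no member past the threshold in *limma*, with or without the block (0.0106% of all genes rose and 0.0318% fell without it, 0.445% and 0.297% with it). The fitted difference between the factors was below 0 for 48 of 49 members, with a median of −0.546, though shCPSF3#2 replicate 2 lay above all 4 UL1 libraries for genes such as *Top2a* and *Mki67*. There was 1 member at an unadjusted p under 0.05 without the block (12.8% of all genes) and 46 with it (25.2%). The median was −0.24 without shCPSF3#1 replicate 1, −0.83 without its replicate 2, −0.21 without shCPSF3#2 replicate 1, −0.87 without its replicate 2, −0.25 without shUL1#1 replicate 2 and −0.34 without shUL1#2 replicate 2.

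Compared with day 0, many members stood lower in the knockdown libraries. The part of feeders and other cells in these falls was not tested. After CPSF3 knockdown 30 of 49 fell and none rose (19.9% of all genes fell and 25.7% rose), with a median of −1.695 (all genes 0.02). After UL1 knockdown 20 fell and none rose (19.4% and 23.5%), with a median of −1.07 (all genes 0.00). The largest falls were those of *Prc1*, *Kif4*, a chromosome-bound kinesin, and *Nuf2* in both comparisons (−2.605, −2.57 and −2.56 for CPSF3, −2.06, −2.03 and −2.03 for UL1). The NI libraries are shared by these comparisons and that of shSCR. Without NI replicate 1 or 2 the 30 falls became 11 or 8 and the 20 became 1 either way, and without the first library of shUL1#1 or shUL1#2 the 20 became 8 or 9.

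**Figure D4:**
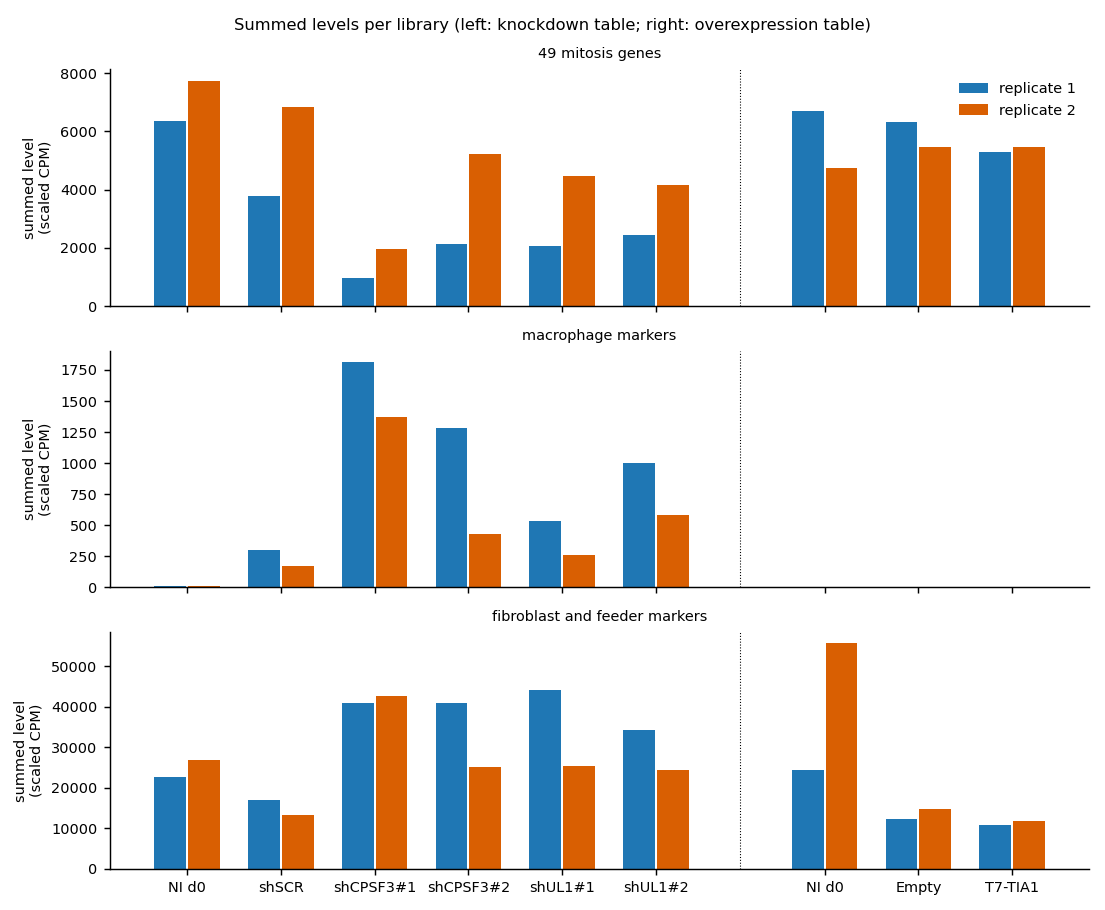
Summed level in scaled CPM per library of the 49 members listed in both tables (top), of 3 listed macrophage markers, none listed in the overexpression table (middle), and of the listed fibroblast and feeder markers (bottom, 18 in the knockdown and 17 in the overexpression table), with bars for the 2 replicates of each group. Member sums were 956 and 1974 in shCPSF3#1, against 3771 and 6831 in shSCR.

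Other cell-cycle genes were counted beside the members, from lists chosen by function. Of 73 listed further mitotic genes, 4 fell and 3 rose after CPSF3 knockdown (9.35% and 16.7% of all genes, list median −0.82), and 2 rose and 0 fell after UL1 knockdown (7.31% and 3.15%, median −0.47). *Cep55*, a midbody protein, fell most of these after CPSF3 knockdown (−1.75, adjusted p = 0.0443), while *Anapc4*, a subunit of the anaphase-promoting complex, rose with both factors (0.55, adjusted p = 0.00673, and 0.40, adjusted p = 0.0372). Between day 0 and shSCR, 18 of the 73 fell and 3 rose, against 22.0% and 22.5% of all genes. *Foxm1*, the transcription factor of the mitotic programme, fell (−1.71, adjusted p = 0.00925), and *Mybl2*, a subunit of the complex that activates mitotic promoters, rose (3.06, adjusted p = 0.0181). *Mybl2* also rose in Empty (3.81, adjusted p = 0.00154), where 17 of 90 listed genes rose and 18 fell, against 22.8% and 23.6% of all genes.

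Of 21 listed genes for G1/S and S phase, 2 rose and none fell with either factor, the same pair of D cyclins both times (16.7% of all genes rose with CPSF3 and 7.31% with UL1). *Ccnd1* rose by 1.57 (adjusted p = 0.0130) and 1.63 (adjusted p = 0.0226), and *Ccnd2* by 1.34 (adjusted p = 0.00203) and 0.64 (adjusted p = 0.0410), for CPSF3 and UL1. The list medians were −0.47 and −0.29, and replication genes such as *Mcm6* (−1.27, adjusted p = 0.126, and −0.50, adjusted p = 0.596) had the sign of the members without passing the test. Both comparisons share the shSCR libraries. Of 11 listed cell-cycle inhibitors and related genes, 4 rose and 1 fell after CPSF3 knockdown (16.7% and 9.35% of all genes) and 1 fell after UL1 knockdown (3.15%). *Cdkn2b*, for p15, rose after CPSF3 knockdown (1.10, adjusted p = 0.00602), and *Cdkn1b*, for p27, fell with both factors (−1.09, adjusted p = 0.00247, and −0.72, adjusted p = 0.0191). *Cdkn2a*, for p16 and p19ARF, rose from day 0 to day 12 in both control arms (3.25, adjusted p = 1.1e-05, and 2.69, adjusted p = 0.0130). Of the 18 fibroblast and feeder markers, 10 rose with CPSF3 and 7 with UL1 knockdown, and their part in the values of these lists was not tested.

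The third question was whether T7-TIA1 changed the members relative to Empty. No member passed the threshold in *limma*, nor did any gene of the table (0.0% in either direction), 1 member and 393 of all genes having an unadjusted p under 0.05. The median log2 fold change of the members was −0.11 (all genes 0.00), between −0.34 for *Cdc25b* and 0.06, with 45 of 50 below 0. The median was −0.01 without Empty replicate 1 and −0.22 without Empty replicate 2. *Tia1* itself, with a log2 fold change of 2.71, had an adjusted p of 0.222, so that a miss of the threshold here does not show that levels were equal. *Mki67* stood at 201 and 174 in Empty and at 155 and 153 in T7-TIA1 (−0.28 ± 0.15, adjusted p = 0.999). *Top2a* stood at 671 and 573 and at 557 and 549 (−0.165 ± 0.19), *Ccnb1* at 285 and 239 and at 259 and 235 (−0.08 ± 0.22), and *Cdk1* at 135 and 120.2 and at 127 and 122 (−0.03 ± 0.25). *Plk1* differed by −0.08 ± 0.18 and *Aurka* by −0.06 ± 0.24, and all 6 genes had an adjusted p of 0.999.

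The T7-TIA1 libraries differed from each other. Relative to the Empty library of the same number, 47 of 50 members lay lower in T7-TIA1 replicate 1 (50.5% of all genes) and 18 in replicate 2 (47.4%). Same-numbered libraries of these groups deviated together only weakly (correlation over genes 0.186). Of the 50, 14 lay lower in both T7-TIA1 libraries than in both Empty libraries, against 24.7% of all genes. Compared with NI, T7-TIA1 cells had 7 rises and 9 falls (22.3% and 22.4% of all genes), which became 13 and 6 when each library was scaled to the same sum. Leaving out NI replicate 1 gave 20 and 9, NI replicate 2 gave 7 and 23, either Empty library 4 and 4, and either T7-TIA1 library 1 rise with 1 or 2 falls. *Pttg1*, *Espl1*, *Bub1* and *Bub1b* rose most (1.41, 0.92, 0.78 and 0.75), and *Prc1*, *Nuf2* and *Kif4* fell most (−1.13, −1.12 and −0.99), with the NI libraries shared with Empty.

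Splicing of the mitosis genes was read as percent spliced in (PSI), with an event counted where mean PSI differed by at least 10 and all libraries of both groups were at least 5 apart. Complementary entries of 1 splice site were counted as the file lists them. From NI to shSCR, 37 of 2927 covered member events in 19 genes passed (1.26%, against 1.22% of all events), 19 higher and 18 lower. From NI to Empty, 19 of 2929 passed (0.649%, against 0.679%). For CPSF3 knockdown against shSCR 10 of 2694 passed (0.371%, against 0.428%), for UL1 knockdown 9 of 2900 (0.310%, against 0.369%), and for T7-TIA1 against Empty 0 of 2932 (0.342% of all events). For the 4 comparisons with such events, the shares were close to those of all events.

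A second test used the reads behind each PSI value (*limma* on log2 inclusion over exclusion reads, Benjamini-Hochberg over all events). It called 101 of 2152 member events from NI to shSCR (4.69%, against 2.93% of all events), 11 for CPSF3 (0.511%, against 0.935%), 6 for UL1 (0.279%, against 0.309%), 1 of 2199 from NI to Empty (against 0.023%) and 0 for T7-TIA1 (0.00329% of all events), where 99 had an unadjusted p under 0.05. Blocking by replicate number gave 22 for CPSF3, and without weights on the reads the count was 38 for shSCR and 0 for CPSF3 and UL1. The share of all events was 1.26% for CPSF3 with the block, and 2.72%, 0.0191% and 0.0% without weights. The count of members fell to 11 and 17 for shSCR without an NI library, to 20 without shSCR replicate 1 and to 49 without shSCR replicate 2, to 1 for CPSF3 without shSCR replicate 1 or shCPSF3#1 replicate 2, and to 0 for UL1 without shSCR replicate 1 or when any 1 shUL1 library was left out. The call in Empty, at *Cit*, was lost when any 1 library of its table was left out. In the shSCR comparison, 48 of 744 member introns were retained more and 2 less than at day 0, against 2.75% and 0.888% of all introns. Of the 101 member events called there, 23 also passed the PSI rule. Without weights, 1387 of 102078 introns were retained more and 1101 less. Mean PSI was 1.65 and 1.27 in NI and 1.87 and 1.71 in shSCR over 773 member introns. Over all introns it was 2.44 and 2.24 in NI and 2.93 and 2.73 in shSCR, so that these were also retained more in shSCR. From NI to Empty, 0 of 762 member introns were called, with 3 higher and 8 lower among 98497 introns. Mean PSI overlapped there, at 1.75 and 1.54 in NI and 2.0 and 1.59 in Empty over 824 member introns.

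Sequences are given for 4 cassette exons, the 3 with the largest ∆PSI in both control arms and that of *Cdc25b*, which had the largest with CPSF3 knockdown, from the mm10 genome and on the strand of the gene, in lower case. The *Cit* exon (chr5:115987688-115987732, plus strand, 45 bases) is annotated in a noncoding transcript. Those of *Ect2* (chr3:27148795-27148887, minus strand, 93 bases), *Incenp* (chr19:9883192-9883203, minus strand, 12 bases) and *Cdc25b* (chr2:131191813-131191935, plus strand, 123 bases) are coding, and the length of all 4 is a multiple of 3.

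Cit exon: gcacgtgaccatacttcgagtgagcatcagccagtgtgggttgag
Ect2 exon: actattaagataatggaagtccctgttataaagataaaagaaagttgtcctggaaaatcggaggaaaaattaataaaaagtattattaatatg
Incenp exon: tgcagctttgtt
Cdc25b exon: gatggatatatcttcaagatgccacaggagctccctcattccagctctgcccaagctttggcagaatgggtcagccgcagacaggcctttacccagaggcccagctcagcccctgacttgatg

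The exon of *Cit* had the largest change. PSI was 71.7 and 56.8 in NI, 16.4 and 11.4 in shSCR, 72.4 and 71.4 in the second NI group and 17.8 and 16.7 in Empty, on 78 to 171 reads per library. Inclusion fell in both arms (∆PSI −50.3, adjusted p = 0.0140, and −54.7, adjusted p = 0.0149 on reads), while the RNA of the gene had risen in Empty. T7-TIA1 stood at 14.6 and 19.2. The knockdown libraries, with 23 to 104 reads, lay between 16.4 and 40.5, and 7 of the 8 were above both shSCR libraries, without passing the rule for either factor.

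*Ect2* encodes the exchange factor that activates RhoA for cytokinesis. Its exon stood at 40.6 and 37.25 PSI in NI, 81.6 and 91.2 in shSCR, 47.8 and 51.8 in the second NI group and 82.0 and 84.7 in Empty, on 450 to 1322 reads (∆PSI 47.5 and 33.6). Inclusion was higher at day 12 in every control library. With knockdown it was 61.7 and 66.0 in shCPSF3#1, 72.7 and 89.2 in shCPSF3#2, 66.9 and 88.9 in shUL1#1, and 69.7 and 85.3 in shUL1#2, so that 3 of 4 CPSF3 libraries lay below both shSCR libraries. The microexon of *Incenp*, the scaffold of the passenger complex, fell from 41.2 and 40.65 in NI to 13.9 and 7.3 in shSCR, and from 45.5 and 36.9 to 12.9 and 13.5 in Empty. On reads the microexon missed the threshold in both arms (adjusted p = 0.103 and 0.0519), and the *Ect2* exon passed in shSCR (0.0347) and missed it in Empty (0.0673). The knockdown libraries of *Incenp* ranged from 5.4 to 31.1 and overlapped shSCR.

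An exon of *Cdc25b* passed both the PSI rule and the test on reads in shSCR and with both factors. Its exon stood at 21.1 and 21.9 PSI in NI and at 48.3 and 50.4 in shSCR (∆PSI 27.8, adjusted p = 0.00094 on reads). In shCPSF3#1 it stood at 28.3 and 26.9, in shCPSF3#2 at 25.3 and 20.6, in shUL1#1 at 35.9 and 35.3, and in shUL1#2 at 31.2 and 34.7. All 8 knockdown libraries lay below both shSCR libraries, and the CPSF3 libraries below the UL1 libraries. The exon was included less with both factors (∆PSI −24.1, adjusted p = 0.00369, and −15.0, adjusted p = 0.0277 on reads, 59 to 194 reads per library at day 12). The intron just before it (chr2:131191722-131191812, 91 bases) went the other way, with retention of 46.0 and 35.3 in shSCR, 70.6 and 70.1 in NI, and 53.85 to 79.4 in the CPSF3 libraries (∆PSI 23.3, adjusted p = 0.105 on reads). Empty stood at 34.5 and 27.6 for the exon, against 23.4 and 23.2 in NI.

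At *Kif23*, *Top2a* and *Ttk*, too, knockdown values lay between NI and shSCR or near NI, in comparisons that share the shSCR libraries. *Kif23* encodes the kinesin of the centralspindlin complex, and its 228-base coding exon (chr9:61921019-61921246, minus strand) stood at 98.2 and 97.6 in NI, 77.9 and 80.5 in shSCR, 89.15 to 93.6 in the CPSF3 libraries and 89.8 to 93.1 in the UL1 libraries. It passed the rule in Empty too, at 82.8 and 88.6 against 99.0 and 98.35 in NI (adjusted p = 0.0668 on reads). Inclusion differed from shSCR with CPSF3 (∆PSI 11.4, adjusted p = 0.0253 on reads) and UL1 (∆PSI 12.4, adjusted p = 0.0190). The longer form of an alternative 3′ splice site of *Top2a*, which holds 88 more bases (chr11:98993326-98993413, minus strand, untranslated or noncoding), was used at 89.4 and 86.65 in NI, 70.5 and 73.4 in shSCR, 84.7 to 90.25 in the CPSF3 libraries and 82.3 to 85.7 in the UL1 libraries (adjusted p = 0.0104 and 0.0392 on reads). An intron of *Ttk* (chr9:83847253-83850571, plus strand), which encodes the checkpoint kinase MPS1, was retained at 8.9 and 9.6 in NI, 21.5 and 19.2 in shSCR, 6.7 to 12.7 in the CPSF3 libraries and 8.0 to 10.9 in the UL1 libraries (adjusted p = 0.0294 and 0.0192 on reads). In Empty the *Ttk* intron stood at 10.2 and 7.2, and the longer form of *Top2a* at 85.15 and 84.2, against 86.1 and 85.6 in NI, so that neither passed the rule in the second control arm. The sum of fibroblast and feeder markers was higher in all 8 knockdown libraries than in both shSCR libraries, and the macrophage sum in 7 of 8 (259 in shUL1#1 replicate 2), and their part in these PSI values was not tested.

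**Figure D5:**
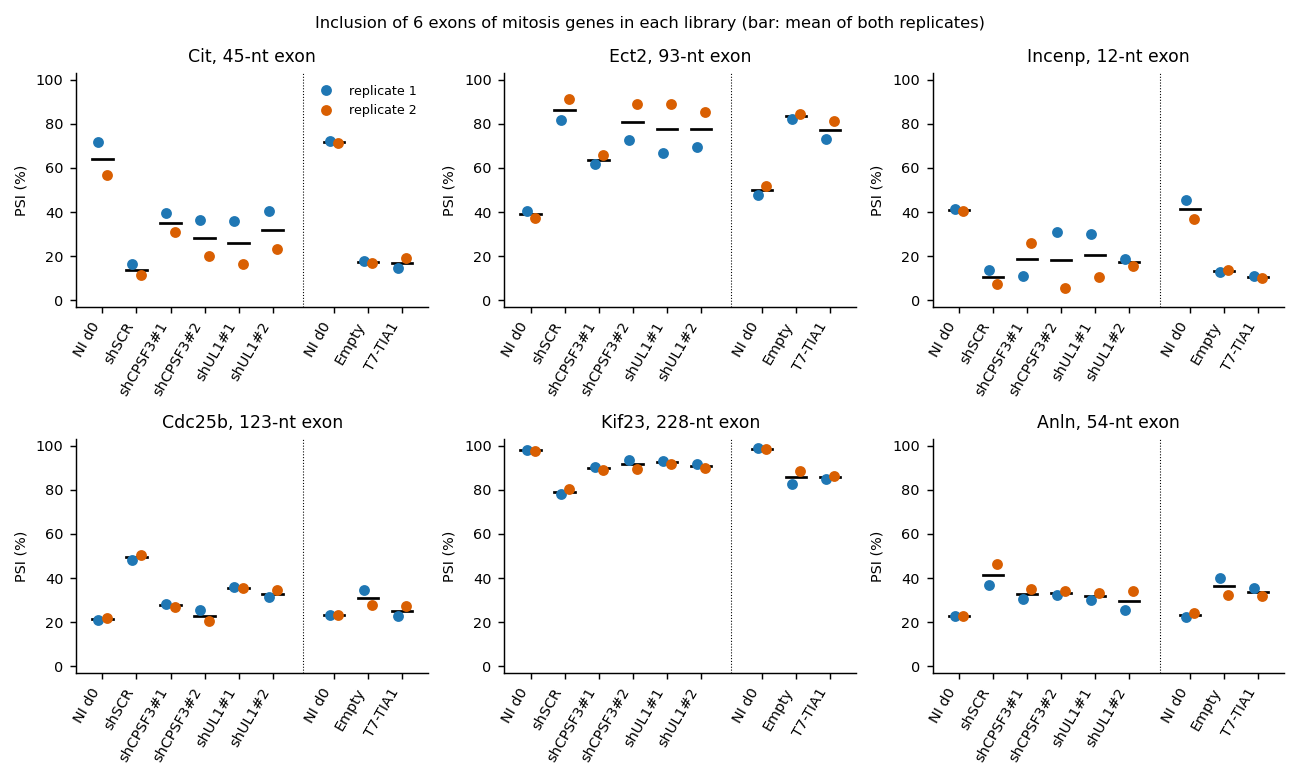
PSI in percent (y axis, 0 to 100) of 6 cassette exons in each library, with points for replicates, a bar for their mean, and a dotted line between the knockdown and the overexpression experiment. *Cit* and *Incenp* fell and *Ect2* rose from day 0 to day 12 in both control arms, and *Cdc25b* was highest in the shSCR libraries.

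Other members had alternative splice sites past the rule. *Kif20b* used 1 form of an alternative 3′ splice site at 44.9 on average in shSCR, 67.6 in NI, 62.7 with CPSF3 and 63.6 with UL1 knockdown, past the test on reads in shSCR (adjusted p = 0.0186) but not with the factors (0.061 and 0.0666). *Tpx2*, for the activator of Aurora A at spindles, used 1 form of an alternative 5′ splice site at 66.2 in NI, 91.5 in shSCR and 81.5 with CPSF3 knockdown (adjusted p = 0.0222 on reads), and at 68.9 in NI and 87.0 in Empty (adjusted p = 0.0766). An alternative 5′ splice site of *Prc1* was used at 52.6 in NI and 70.6 in Empty, and at 71.9 in shSCR and 59.9 with UL1 knockdown, neither past the test on reads (adjusted p = 0.147 and 0.317). The 54-base exon of *Anln* (chr9:22349247-22349300, minus strand) stood at 22.7 and 22.9 in NI, 37.0 and 46.1 in shSCR, 22.3 and 24.3 in the second NI group, and 40.2 and 32.3 in Empty (adjusted p = 0.0167 for shSCR and 0.195 for Empty on reads).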

How the data were processed

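RNA of 18 libraries (12 in the knockdown and 6 in the overexpression experiment) was sequenced as stranded libraries. Per the labels and methods, the authors aligned reads to mm10 with STAR 2.7.1a, scaled read counts per library with edgeR 3.16.5 and removed lowly expressed genes, and the deposited signal values are these scaled CPM, normalized separately for each experiment. The authors quantified splicing with vast-tools, mapping by strand, and deposited PSI in percent with its reads. Tables were compared only within themselves, and low genes are missing from them.

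Levels were tested as log2(scaled CPM + 1) with limma 3.58.1 in R 4.3.3, all groups of a table in 1 fit with a variance trend, two-sided, and Benjamini-Hochberg adjustment over all genes at 0.05. A fold change on this scale understates that of low genes. Both shRNAs of a factor were given equal weight. Events needed coverage of at least the grade VLOW. The reads behind PSI were tested with limma on log2((inclusion + 1)/(exclusion + 1)), weighted by counting variance plus 0.05. The scripts were tested on simulated data.

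Same-numbered day 12 libraries of the knockdown experiment deviated together from their group means (correlation over genes 0.674 to 0.949 for the 5 groups, from the data and not the labels), so values with the number as a block are given there. The block was 1 term over all 12 libraries of that experiment, NI included. Deviations of NI did not follow those of the day 12 groups (correlation −0.127 to 0.022).

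Members, gene lists and named genes (*Mki67*, *Top2a*, *Ccnb1*, *Cdk1*, *Plk1*, *Aurka* and up to 4 rises and 4 falls of the largest size per comparison) were chosen with earlier results of these data known. Other genes named were chosen after their values were seen. Count models were not used, since the deposited values are not counts.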

Additional observations from a re-analysis of the deposited data

How the results depend on the processing

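The count of mitosis genes past the threshold depended on the fit. Of the medians, 86 of 90 with a library left out and all 62 under other settings moved by less than the spread between replicates. This tally does not rank medians against counts, since many medians could not move. The block, a fit on only the groups compared, and leaving out a library of another group keep a median by construction. In shSCR the median still ran from −0.891 to 0.027 with a library left out. With a constant of 5, the shSCR against NI count of 2 became 4. With equal sums per library it became 1 for shSCR, 4 for CPSF3 against shSCR and 9 for UL1 against NI. With only the groups compared in the fit it became 10 for shSCR, 8 for Empty, 0 for CPSF3 against shSCR and 8 for T7-TIA1 against NI. The share of all genes is not given for these settings, so the counts say nothing particular to the members. With the replicate block the count became 24 for shSCR, 48 for CPSF3 and 30 for UL1 against shSCR, and 48 for CPSF3 and 45 for UL1 against NI. The block raised the share of all genes that fell too, from 22.0% to 29.6% for shSCR, 19.9% to 29.5% for CPSF3 against NI and 19.4% to 28.5% for UL1 against NI. For Empty the block gave 11 rises and 7 falls, 17 of the 18 genes being shared, and it changed no count of T7-TIA1 against Empty. For T7-TIA1 against NI the block gave 7 rises and 10 falls (22.3% and 22.6% of all genes). Between NI and the day 12 knockdown groups the correlation of deviations was −0.127 to 0.022, which shows no pairing by number over all genes. In the overexpression table it was positive but low (0.171 to 0.308, with 2 libraries a group), so that pairing by number there is unclear. With the first shRNA alone the count was 30 for CPSF3 against shSCR (14.4% of all genes fell) and 11 for UL1 against NI (15.6%). With the second it was 0 for CPSF3 against shSCR (1.12%), 10 for CPSF3 against NI (14.7%) and 9 for UL1 against NI (15.8%). These single-shRNA fits were added after seeing the data. At a PSI difference of at least 15, 8 events passed for Empty, 6 for CPSF3 and 3 for UL1, and with no gap asked 1 passed for T7-TIA1. On reads, the replicate block gave 22 for CPSF3 (1.26% of all events) and 4 for Empty (0.116%). No weights gave 38 for shSCR (2.72%), 0 for CPSF3 (0.0191%) and 0 for UL1 (0.0%).

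Leaving out 1 library at a time, the count ranged from 0 to 4 for shSCR, 3 to 31 for Empty, 0 to 27 for CPSF3 against shSCR, 8 to 42 for CPSF3, 1 to 21 for UL1 and 2 to 30 for T7-TIA1 against NI. Past the PSI rule it ranged from 41 to 57 for shSCR, 27 to 37 for Empty, 18 to 21 for CPSF3, 13 to 30 for UL1 and 12 to 18 for T7-TIA1, a lone library making the gap easier to meet by construction. On reads it ranged from 11 to 84 for shSCR, 1 to 9 for CPSF3, 0 to 6 for UL1 and 0 to 0 for Empty. A lone library was assumed to vary like the other groups.

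Log2 fold changes that reversed had missed the threshold. With equal sums per library, *Ccnb1* became 0.071 in shSCR and *Plk1* 0.012 in Empty. With a library left out, *Top2a* ranged from −1.082 to 0.027 and *Ccnb1* from −0.553 to 0.426 in shSCR, *Plk1* from −0.429 to 0.086 and *Aurka* from −0.165 to 0.593 in Empty, *Top2a* from −1.065 to 0.044 and *Cdk1* from −0.771 to 0.022 for UL1, and *Ccnb1* from −0.206 to 0.044 and *Cdk1* from −0.112 to 0.051 for T7-TIA1 against Empty. For T7-TIA1 against NI, *Top2a* ranged from −0.090 to 0.400, *Plk1* from −0.507 to 0.008 and *Aurka* from −0.223 to 0.535. The causes were not tested. Count models on recovered reads were not run. The reads of the events limit PSI more than levels, since *Cit* had as few as 23 reads in a library.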
